A study of Danio rerio with 12 samples.

Results

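Open chromatin was compared between the endodermal cells of RA-treated zebrafish embryos and non-endodermal (NE) cells. The comparison used the 3 RA and the 3 NE samples, which are 6 of the 12 ATAC-seq samples of the study. ATAC-seq uses a transposase that cuts DNA not wrapped in nucleosomes, and stretches rich in cuts are called as peaks. All embryos carried the transgene Tg(sox17:GFP), in which the sox17 promoter drives GFP in endodermal cells, and were treated from the 2-cell stage to the 3 somites stage, when cells were sorted by FACS. RA samples were GFP+ cells of embryos given retinoic acid. NE samples were GFP− cells of embryos given DMSO, the solvent, and pooled every cell type outside the GFP+ gate. GFP+ cells of embryos given DMSO or BMS493, an inverse agonist of all RA receptors, made the other 6 samples, with 3 of each. RA and NE samples thus differed in both cell type and treatment, and the effects of the 2 cannot be told apart in this comparison alone, so that the DMSO and BMS493 endoderm was read beside it. The question was whether excess RA keeps or blurs the accessibility pattern that parts endoderm from the rest of the embryo.

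Endoderm forms at gastrulation and gives rise to the gut, liver, pancreas and pharynx. In zebrafish the HMG-box factor sox32 is needed for its formation and acts upstream of sox17. RA binds the RA receptors (RARs), which sit on DNA as pairs with RXRs, and RA made in the neighbouring mesoderm patterns the endoderm along the anteroposterior axis and is needed for the pancreas. Excess RA shifts posterior identities forward, and the genes that break RA down are among its targets.

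Each sample has its own peak list. Merging peaks of all 12 lists wherever they shared at least 1 bp gave 245646 regions, of which 207338 were called in at least 1 RA or NE list. The RA lists held 83515 to 116700 peaks and the NE lists 95779 to 143755, from 11056595 to 22930744 tags per sample after duplicate removal. The list of DMSO replicate 1 was the shortest, with 51301 peaks. Counts of regions over the genome were therefore also made on lists shortened to this length by −log10(q), here called lists of equal length, while counts near genes and at bound sites use the deposited lists. The height of a peak was its percentile rank by pileup (the tags stacked at the summit) within its own list, with 0 where a sample called no peak. A region with no peak is not thereby closed, since signal under the calling threshold is not listed. In bulk samples a lower height can come from fewer cells in which a region is open or from less accessibility in each, and these cannot be told apart. Ranks of replicates correlated over regions with r from 0.776 to 0.827 in RA and from 0.744 to 0.789 in NE.

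Known endoderm and non-endoderm genes were looked at first, as a check of the labels. Of 7 endoderm markers, sox32, cxcr4a and gata6 had a position on the Zv9 assembly in the sources used here, and 63 regions within 50 kb of their transcription start sites (TSS) were tested, of which 15 ranked higher in RA than in NE and 1 lower (limma, adjusted p under 0.05). Over all tested regions 4.77% ranked higher and 6.85% lower. Of the 15, 9 lay at gata6, 5 at sox32 and 1 at cxcr4a, where the 1 lower region lay too. Calls alone overlapped, with 43 to 62 of 81 endoderm marker regions in the RA lists, 33 to 52 in NE, 32 to 57 in DMSO and 41 to 52 in BMS493. Around the 5 neural markers otx2, gbx2, egr2b, neurog1 and sox21b, 18 of 85 tested regions ranked lower in RA and 2 higher. The RA lists called 41 to 59 of the 142 neural marker regions and the NE lists 64 to 101. The lists differ in length (83515 to 116700 peaks in RA, 95779 to 143755 in NE), and list length moves such counts. No share of all regions is set beside the calls at endoderm or neural markers, so that no difference is read from them. The DMSO lists called 28 to 72 and the BMS493 lists 39 to 70 of them. Around the epidermal markers tp63, tfap2c and dlx3b, 5 of 52 regions ranked higher and 3 lower, and around the mesodermal and blood markers pcdh8, tal1 and gata2a, 3 of 59 ranked higher and 4 lower. By rank, the loci of sox32, gata6 and the neural markers went with the labels, while those of cxcr4a and of the epidermal and mesodermal markers did not part RA from NE in one direction. Positions were available only for genes with an RAR site or an RA-responsive peak nearby, and RA against NE mixes treatment with cell type. The check is therefore limited. In DMSO against NE, 5 regions at sox32, 3 at gata6 and 2 at cxcr4a ranked higher, and 1 at cxcr4a lower. How far other cells in the GFP+ gate contributed was not tested.

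RA-treated endoderm resembled the other endodermal samples more than NE. The Jaccard index (regions called in both samples of a pair, as a fraction of those called in one or both) was 0.450, 0.428 and 0.414 on average between RA replicates 1, 2 and 3 and the NE samples. The same RA replicates gave 0.506, 0.493 and 0.487 with the DMSO samples and 0.518, 0.506 and 0.503 with the BMS493 samples. Each replicate thus lay closer on average to either endodermal group than to NE, although the pair of RA replicate 1 and the short list of DMSO replicate 1 gave only 0.379. With lists of equal length, the pairs of RA and DMSO samples (0.505 to 0.618) no longer overlapped the pairs of RA and NE samples (0.435 to 0.495), and neither did the pairs of RA and BMS493 samples (0.525 to 0.612).

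By presence, 5358 regions (2.18% of the 245646) were called in all 3 RA lists and in no NE list, and 7669 (3.12%) in all 3 NE lists and in no RA list. A further 39388 regions (16.0%) were called in all 6. Regions found on one side alone were narrower and lower than those called in all 6 lists. Their median width was 299 bp in RA and 292 bp in NE, against 424 bp for regions called in all 6 lists. Regions called in at least 3 samples had a median width of 311 bp, near that of the regions on one side alone. The median rank of the latter was 51.8 in RA and 51.1 in NE, against 75.5 and 77.8 for the shared regions. A merged region spans all its peaks, so that calls in more lists can widen it. The shared regions were chosen for calls in more lists, and the part of this choice in their width and rank was not tested. The median distance to the nearest other region of the same set was 52.5 kb for RA and not NE. For NE and not RA, the larger set, it was 37.4 kb. The size of a set enters this distance. With lists of equal length the sides evened out, with 4689 regions in RA and not in NE and 4522 in NE and not in RA. The RA side then held 50.9% of such regions, against 41.1% in the deposited lists. Leaving out NE replicate 2 or RA replicate 3 raised the first count to 8434 or 8609, and leaving out NE replicate 1, NE replicate 3 or RA replicate 1 raised the second to 13473, 13259 or 11850. In each case presence or absence had to hold in fewer lists.

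The DMSO and BMS493 lists, which did not choose these regions, divided them differently (plotted by the number of lists). Of the 5358 regions in RA and not in NE, 4602 (85.9%) were called in at least 1 of the 6 DMSO and BMS493 lists and 2585 (48.2%) in at least 4. Regions of this kind called in no DMSO or BMS493 list numbered 756 (14.1%). Of the 7669 regions in NE and not in RA, 888 (11.6%) were called in at least 4 of these 6 lists. In lists of equal length, 1607 (34.3%) of the RA regions were called in all 6 and 709 (15.1%) in none, and 177 (3.91%) of the NE regions were called in all 6 and 2346 (51.9%) in none. Over the 127026 regions called in at least 3 of the 12 samples, 94.1% were called in at least 1 of these 6 lists and 54.5% in at least 4, and in lists of equal length 39.9% in all 6. The shares of the RA regions lay above those of the NE regions and below those of regions at large. Regions at large could be chosen through calls in the 6 lists counted here, while the RA and NE regions could not. The comparison with regions at large therefore has unlike bases, and nothing is read from it.

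**Figure D1:**
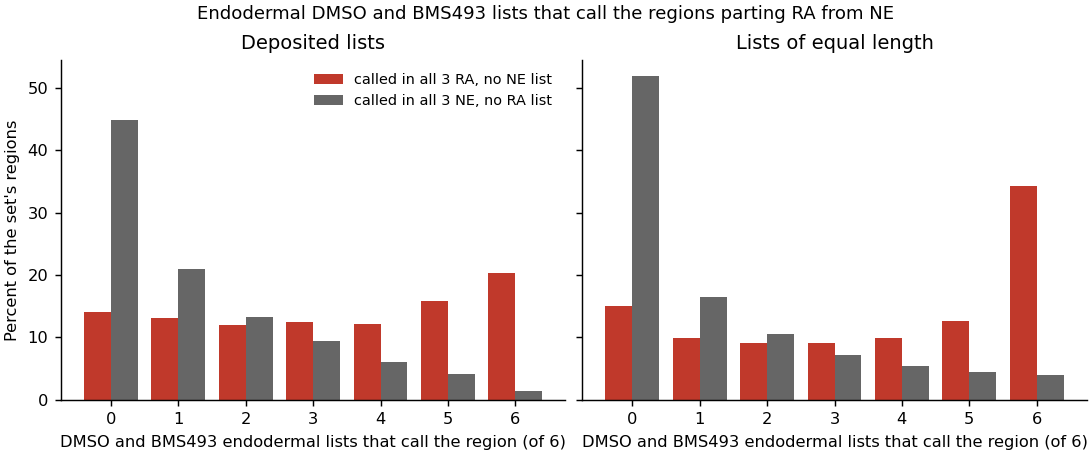
Share of regions (y axis, percent) by the number of the 6 DMSO and BMS493 lists that call them (x axis), for regions called in all RA and no NE lists and for regions called in all NE and no RA lists, in the deposited lists and in lists of equal length. The NE regions pile up at 0 lists (44.9% in the deposited lists), while the RA regions spread over all numbers with a maximum at 6 (20.3%).

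On ranks, 127026 regions called in at least 3 samples were tested with limma. Of these, 6059 ranked higher in RA than in NE (4.77% of those tested) and 8695 lower (6.85%), with median differences of 59.6 and −57.8 on the rank scale. A region called only in the 3 samples of 1 group was tested through the calls of that group alone, and its p is a description. The comparison of DMSO with NE shares the NE samples, and there 2748 were higher in DMSO (2.16%) and 6239 lower (4.91%). The DMSO counts rest heavily on the short list. Without DMSO replicate 1 the higher count was 5345, without DMSO replicates 2 and 3 it was 1448 and 1592, and lists of equal length gave 4508 higher and 4975 lower, beside 6515 and 6435 for RA. Leaving out NE replicate 1 gave 1811 higher and 3550 lower in DMSO, and the lower count was 1935, 3285 and 3408 without NE replicate 2, NE replicate 3 and DMSO replicate 2. The balance between the directions depended on the scale. On the log2 of pileup scaled to the tags of each sample, with 1 added, 8373 regions were higher in RA and 7649 lower, so that the higher side was 52.3% of the calls, against 41.1% on ranks. Single samples also moved the RA against NE counts by over 1.5 times. The higher count fell to 3495 without NE replicate 1, 3876 without NE replicate 3, 3955 without RA replicate 1 and 3554 without RA replicate 2. The lower count fell to 5473, 3301 and 5081 without NE replicates 1, 2 and 3 and to 4705 and 5141 without RA replicates 2 and 3.

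The regions past the threshold were of different kinds. Of the 6059 that ranked higher in RA, 3101 (51.2%) were called in no NE list, and their median rank was 63.5 in RA, 23.2 in DMSO and 12.7 in BMS493. Another 1087 (17.9%) were called in all 6 RA and NE lists and differed in height, with a median rank of 92.5 in RA and 55.4 in NE. In the DMSO and BMS493 samples these had 88.6 and 89.8. Of the 8695 that ranked lower, 5575 (64.1%) were called in no RA list, with a median rank of 55.7 in NE and 0 in DMSO and in BMS493. The 639 (7.35%) lower regions called in all 6 lists had 45.0 in RA and 91.7 in NE, while DMSO and BMS493 had 71.8 and 75.6. These classes were chosen on the RA and NE ranks, with the spread of all 12 samples, so that the place of RA beside DMSO and BMS493 in them is a description.

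Whether RA keeps endoderm accessibility was read on regions chosen without RA samples. Each endoderm set asks for a call in every list of another endodermal group, so regions called only with added RA cannot enter it. The choice also favours a group that resembles the choosing group, and its part in the differences below was not tested. A first set was called in all 3 BMS493 and in no NE list (3634 endoderm regions). RA replicates 1, 2 and 3 called 82.5%, 63.7% and 59.3% of it, a mean of 68.5% ± 12.3 (SD, n = 3). DMSO replicates 1, 2 and 3 called 45.5%, 92.2% and 92.5%, a mean of 76.7% ± 27.1 (SD, n = 3). The RA mean was lower by 8.21 percentage points, but the groups overlapped through DMSO replicate 1, which called the least of all. Without that sample the difference was −23.8, and every RA list called less than either DMSO list. Without DMSO replicate 2 or 3 it was −0.449 or −0.339, and without RA replicate 1, 2 or 3 it was −15.2, −5.82 or −3.60. The size of the difference in the deposited lists thus rested on single samples. With lists of equal length RA called 67.4% ± 6.71 (SD, n = 3) and DMSO replicates 74.2%, 87.1% and 85.4% of 3867 such regions, a difference of −14.8 in the means, and the highest RA list (75.1%) lay just above the lowest DMSO list. Leaving out DMSO replicate 1 there as well, an alternative chosen after seeing the data, gave −18.8. Since the smallest two-sided p of an exact permutation test on 3 lists against 3 is 0.1, these differences carry no test.

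A second set was chosen by DMSO in place of BMS493 (2274 regions in all 3 DMSO and no NE list). RA replicates 1, 2 and 3 called 89.1%, 74.1% and 68.8% of it, a mean of 77.3% ± 10.5 (SD, n = 3), and BMS493 replicates called 82.8%, 92.2% and 80.5%, a mean of 85.2% ± 6.22 (SD, n = 3). The difference was −7.81 in the deposited lists and −10.7 with lists of equal length, and the groups overlapped. It was −13.7 without RA replicate 1, −3.53 without RA replicate 3, −4.28 without BMS493 replicate 2 and −3.25 where DMSO replicate 1 did not enter the choice of the set. All 3 RA lists called 1383 (60.8%) of these regions and no RA list called 165 (7.26%), against 71 (3.12%) called in no BMS493 list. In the first set no RA list called 474 regions (13.0%) and no DMSO list 70 (1.93%). List length moves these shares. Over all tested regions RA replicates 1, 2 and 3 called 74.4%, 61.5% and 55.6%, DMSO replicates 36.4%, 72.3% and 76.5%, and BMS493 replicates 51.7%, 74.4% and 58.4%.

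The mirror sets held regions called in all NE lists and in no BMS493 list, or in no DMSO list. Of 6688 regions in all 3 NE and no BMS493 list, RA replicates called 23.4%, 16.1% and 13.0%, a mean of 17.5% ± 5.35 (SD, n = 3), and DMSO replicates 2.69%, 17.5% and 28.1%, a mean of 16.1% ± 12.8 (SD, n = 3). The difference of 1.36 was well within the spread of the replicates. With lists of equal length the means were 14.1% ± 0.704 in RA and 11.1% ± 2.23 in DMSO (SD, n = 3), a difference of 2.99, and the groups still overlapped. Of 5814 regions in all 3 NE and no DMSO list, RA called 13.1% ± 5.12 and BMS493 11.5% ± 6.16 (SD, n = 3). That difference of 1.65 turned to −0.313 with lists of equal length. The calls of NE regions in RA-treated endoderm thus overlapped those of the other endoderm in both sets, and the sign of the difference was not the same throughout.

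**Figure D2:**
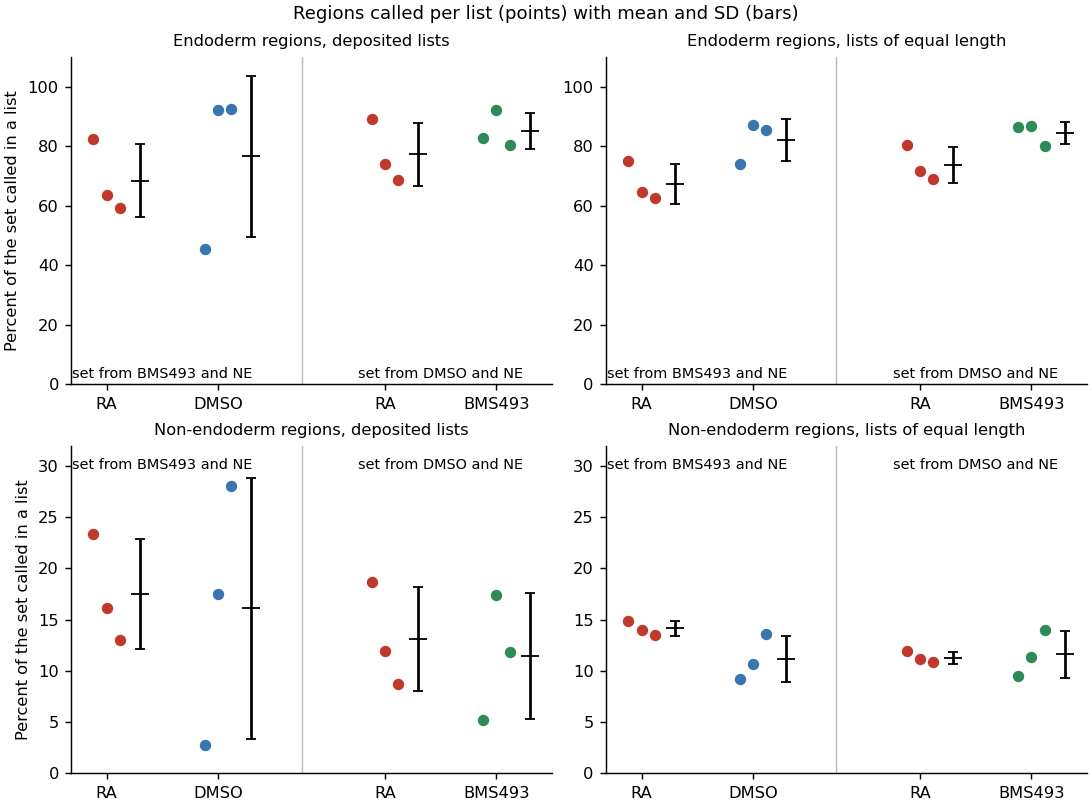
Percent of each set called in each list (points, y axis) with the mean and SD of 3 lists (bars), for endoderm regions (top) and non-endoderm regions (bottom), in the deposited lists (left) and in lists of equal length (right). The sets were chosen by BMS493 and NE or by DMSO and NE, and are read in the remaining groups. RA has the lower mean of endoderm regions in all 4 pairs (68.5% against 76.7% at the top left), while the non-endoderm means lie within 3 points of each other.

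The mean share of endoderm regions was lower in RA at every height. The first set was divided into 4 height classes of similar size by mean rank in the BMS493 lists, which did not enter the reading. In lists of equal length, RA called on average 47.7%, 60.0%, 74.0% and 88.0% from the lowest to the highest class, and DMSO 60.9%, 80.7%, 90.0% and 97.3%. In the highest class RA replicates called 93.1%, 87.0% and 83.9% and DMSO replicates 95.2%, 98.8% and 97.8%, without overlap. The second set showed the same order, with 54.3%, 68.6%, 80.5% and 91.7% in RA and 65.9%, 82.2%, 91.6% and 98.0% in BMS493. There the RA replicates called 95.8%, 91.3% and 88.0% of the highest class and the BMS493 replicates 99.1%, 98.2% and 96.6%. Over all tested regions the RA lists of equal length called 69.0%, 66.0% and 64.3%. The DMSO lists called 62.9%, 69.4% and 70.0% of these, and the BMS493 lists 65.9%, 69.5% and 66.9%. In the deposited lists RA rose from 51.2% to 86.5% and DMSO from 60.0% to 92.2% over the first set. The non-endoderm regions showed no such rise, with 13.8%, 14.7%, 12.3% and 15.7% in RA over the classes of the set chosen by NE and BMS493.

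**Figure D3:**
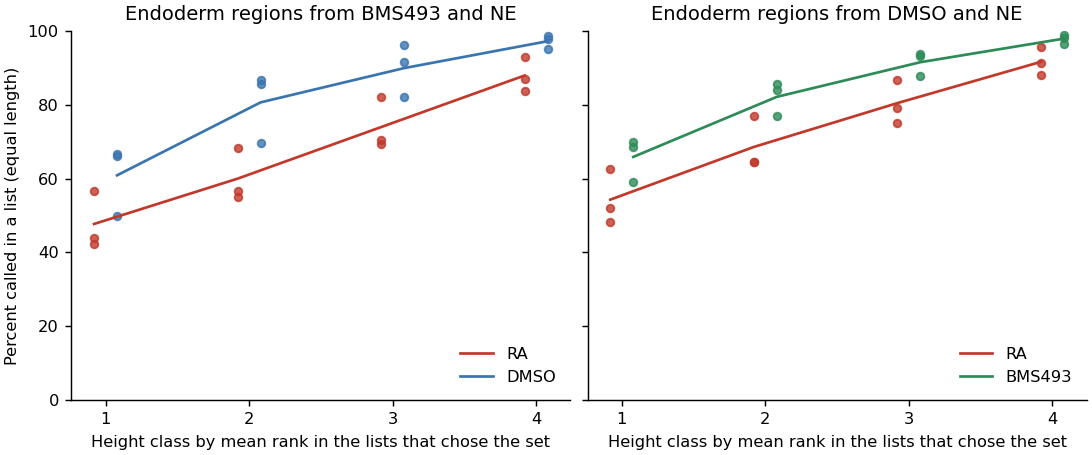
Percent of the regions called (y axis) in each of 4 height classes of a set, ranked in the samples that chose it (x axis, lowest to highest), for RA and the group it is read against, in lists of equal length. Points are single lists and lines join the means of 3 lists. RA lies below DMSO or BMS493 by its mean in every class of the endoderm sets, from 47.7% against 60.9% to 88.0% against 97.3% in the first.

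Single regions of these sets rarely differed between RA and DMSO at the adjusted threshold. Over all tested regions limma found RA above DMSO at 246 (0.194%) and below it at 46 (0.0362%). These counts were not stable. With the replicate block, without the filter, or without any 1 of the NE or BMS493 samples, a single region passed. Without DMSO replicates 1, 2 and 3 the calls in both directions were 1 and 5, 3 and 2, and 5 and 1, and without RA replicate 1 they were 94 higher and 240 lower. Among the 3634 endoderm regions of the first set, limma called 2 lower and 0 higher, while 303 (8.34%) were lower and 150 (4.13%) higher at an unadjusted p under 0.05, against 2.54% and 4.44% of all tested regions. In lists of equal length, 120 of 3867 (3.10%) were lower and 17 (0.440%) higher, against 0.768% and 1.57% of all. In RA against BMS493, 794 regions ranked higher (0.625%) and 167 lower (0.131%) over all tested, and among the 2274 endoderm regions of the second set 20 ranked higher (0.880%) and 23 lower (1.01%). With lists of equal length these were 150 (4.14%) and 258 (7.13%) of 3621, against 2.52% and 1.58% of all. Each endoderm set was chosen for a call in every BMS493 or DMSO list. Regions at large were not, so that the shares compared here have unlike bases. The endoderm regions thus held both regions raised and regions lowered relative to BMS493. Among the 6688 non-endoderm regions chosen by NE and BMS493, RA exceeded DMSO at 7 (0.105%).

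Genes were then placed by the Zv9 start sites that the study gives for genes with an RAR site or an RA-responsive peak nearby. A gene is thus available partly because its locus responds to RA, and no share over these genes speaks for the genome. Regions within 50 kb of a TSS were counted, and for each gene the region with the smallest adjusted p of RA against NE is given. That region was chosen for its p, which was adjusted over all 127026 tested regions. Where it was called only in the RA or only in the NE samples, it was tested through those calls alone. The p of such a region is a description. Of the 373 tested regions near 21 RA pathway genes, 37 (9.92%) ranked higher in RA and 18 (4.83%) lower, with a median difference of 2.06 against −2.91 over all tested regions. In DMSO against NE the same regions gave 5 higher and 17 lower. Over all tested regions 4.77% ranked higher and 6.85% lower in RA, and 2.16% and 4.91% in DMSO.

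The RA-degrading enzymes cyp26b1 and cyp26a1 had regions called in RA only, or nearly so. At cyp26b1, chr7:26534696-26535078, 43.9 kb from the TSS, ranked 91.5, 92.2 and 81.1 in the RA replicates and 0 in every NE and BMS493 sample, with 22.7 in DMSO replicate 3 alone. The groups did not overlap, and the difference from NE was 88.3 ± 13.7 (SE, limma adjusted p = 8.68e-04). It was the locus of 6 higher and 1 lower regions among 13 tested. At cyp26a1, chr12:9666823-9667200 ranked 50.5, 55.5 and 34.6 in RA and 0 in the other 9 samples, a difference of 46.9 ± 10.2 (SE, limma adjusted p = 0.00609). dhrs3a, whose enzyme turns retinaldehyde back to retinol, had 5 higher regions of 14 tested. The one at chr23:21969867-21970481 ranked 63.9, 60.8 and 51.8 in RA and 0 in all other samples. lrata, which stores retinol as esters, showed the same at chr1:24555889-24556200, with 55.6, 65.3 and 51.8 in RA, and so did rxrga, a partner receptor of the RARs, at chr2:20489550-20489721, with 81.5, 78.0 and 81.1. The gene that makes RA went the other way. At aldh1a2, chr7:31691219-31691851 ranked 67.7, 85.2 and 65.4 in NE and 0 in all 9 endodermal samples (−72.7 in RA and in DMSO against NE, limma adjusted p = 0.00136 and 0.00170).

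Receptors and cofactors varied. At nrip1b, a nuclear receptor corepressor gene, chr10:39656826-39657360 ranked 79.8, 80.3 and 86.9 in RA, 80.8, 80.8 and 84.0 in DMSO and 0 in NE. Its paralogue nrip1a had a region in RA alone at chr15:29047909-29048004 (50.5, 65.3 and 75.8). At nr2f5, an orphan receptor gene of the COUP-TF family, chr16:49380352-49380953 ranked 84.5, 89.4 and 73.8 in NE and 0 in all endodermal samples, and the coactivator gene ncoa3 (67.7, 69.6 and 77.0 in NE) and the zinc-finger gene tshz1 (84.5, 76.9 and 52.7 in NE) each had a region of this kind. Over the tested regions of each locus, nr2f5 had 1 higher and 3 lower in RA than in NE. The counts were 1 and 1 at ncoa3 and 2 and 1 at tshz1. At meis2b, a Hox cofactor gene, chr20:10302359-10302638 was tall in NE (95.4, 97.8 and 91.7) and in DMSO (80.8, 87.5 and 84.0), but only RA replicate 1 called it among the RA samples (85.8). The difference of −66.4 ± 15.3 (SE, limma adjusted p = 0.00840) in RA therefore had no counterpart of that size in DMSO (−10.9, limma adjusted p = 0.772), although RA against DMSO itself did not pass (−55.5, limma adjusted p = 0.186). The call against NE was lost without RA replicate 2 or 3 (limma adjusted p = 0.0568 and 0.0514). Neither raraa (41.4, limma adjusted p = 0.110) nor meis3 (17.7, limma adjusted p = 0.158) had a region past the threshold.

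Near 12 hox genes, which set position along the body axis, 15 of 181 tested regions ranked higher in RA (8.29%) and 2 lower (1.10%), beside 2 higher and 3 lower in DMSO. The shares of all tested regions in RA were 4.77% and 6.85%. Hox genes lie in clusters, so that neighbours share regions. Near hoxb1a and hoxb3a, chr3:24067855-24068147, 7.72 kb from the TSS of hoxb1a, ranked 88.1, 93.7 and 72.5 in RA and 0 in NE (84.7 ± 11.5, SE, limma adjusted p = 3.59e-04), but it ranked 64.5, 87.5 and 88.3 in DMSO too. At hoxc4a, chr23:36174635-36174795 ranked 70.5, 78.0 and 58.4 in RA and 0 elsewhere. Near hoxb1b, hoxb5b and their neighbour skap1, chr12:28746755-28747395 ranked 63.9, 49.2 and 72.5 in RA, with 20.2 in DMSO replicate 2 as the only other call. The region chr3:23996325-23996627, near hoxb4a, hoxb6a and hoxb7a, ranked 90.7, 84.0 and 78.7 in RA, 0, 78.5 and 85.6 in DMSO and 0 in BMS493 and NE. The hoxa1a, hoxa3a and hoxa5a genes shared a region of NE alone, chr19:19201651-19201984 (51.1, 80.7 and 59.8). Hox loci thus held regions of endoderm, of RA-treated endoderm and of NE.

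Endoderm and pancreas genes had more regions higher in RA than in NE than lower ones. Of 21 listed genes, 10 could be placed, and 37 of their 175 tested regions ranked higher (21.1%) and 13 lower (7.43%), with 21 higher and 10 lower in DMSO. All tested regions gave 4.77% higher and 6.85% lower in RA, so that the lower share was near that of regions at large. At sox32, chr7:65325853-65326152 ranked 83.1, 87.0 and 72.5 in RA, 0, 38.4 and 42.2 in DMSO, 0, 0 and 23.4 in BMS493 and 0 in NE. RA stood above all other samples there, with a difference from NE of 80.9 ± 15.7 (SE, limma adjusted p = 0.00306). RA against DMSO did not pass at this sox32 region (54.0, limma adjusted p = 0.223). At gata6, a zinc-finger factor of gut and pancreas, Zv9_scaffold3540:149596-149979 ranked 95.0, 94.8 and 93.5 in RA, 83.4, 90.9 and 91.3 in DMSO, 86.6, 93.6 and 85.7 in BMS493 and 0, 49.5 and 0 in NE. All 9 endodermal samples exceeded NE, by 78.0 ± 11.0 in RA (SE, limma adjusted p = 4.98e-04) and 72.0 in DMSO. hnf1ba, a homeobox gene of foregut and pancreas, was alike at chr15:15018621-15019050, with 98.2, 97.6 and 96.4 in RA, 89.1, 95.1 and 98.6 in DMSO and 0, 0 and 43.7 in NE.

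Endocrine genes showed regions of the same kind. At neurod, a bHLH gene of endocrine and neural cells, chr9:45361981-45362412, under 1 kb from the TSS, ranked 89.9, 94.3 and 83.3 in RA, 69.7, 76.0 and 69.2 in DMSO and 0, 43.4 and 0 in NE. The RA samples were above the DMSO samples, but RA against DMSO did not pass (17.5, limma adjusted p = 0.945). At ascl1b, which starts endocrine differentiation in zebrafish, chr7:51181370-51182226 was called in all 12 samples and ranked 27.7 higher in RA than in NE and 31.0 higher in DMSO. The zinc-finger gene insm1b had a region 38.8 higher in RA, and mnx1, a homeobox gene of beta cells, one with 75.6, 65.3 and 72.5 in RA, 0, 45.7 and 42.2 in DMSO and 0 in NE and BMS493. Not every endoderm gene followed. The region at cxcr4a, a chemokine receptor gene of migrating endoderm, ranked 43.3, 36.2 and 52.7 in NE and 0 in all endodermal samples, and hnf1bb had one of this kind (−52.2, but −12.5 and no longer past the limma threshold with lists of equal length).

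Near 5 endoderm-enriched genes whose RNA rises with RA, 15 of 70 tested regions ranked higher (21.4%) and 4 lower (5.71%), beside 3 higher and 1 lower in DMSO. Regions at large gave 4.77% higher and 6.85% lower in RA. These genes were chosen on RNA of RA-treated endoderm, so that their direction is not independent evidence. The homeobox gene mxtx1 had chr13:21798491-21798824 at 93.4, 94.8 and 90.8 in RA, 64.5, 57.4 and 72.6 in DMSO, 23.9, 0 and 0 in BMS493 and 0 in NE. The order of the groups there was RA, DMSO, BMS493 and NE, with no overlap of RA with any other group. RA against DMSO did not pass at this region (28.2, limma adjusted p = 0.783). At foxg1b, a forkhead gene, chr11:44252292-44252559 ranked 81.5, 85.6 and 92.7 in RA and 0 in NE. Where peaks within 100 bp were merged, the region at foxg1b differed by only 5.71 (limma adjusted p = 0.318), so that this call rests on how peaks are parted. The region given for pcdh10a, a protocadherin gene, differed in direction, with 96.8, 91.8 and 92.5 in NE and 37.6, 0 and 0 in RA. This call was lost where a peak had to cover 50% of a region (limma adjusted p = 0.124). Of the 14 tested regions near pcdh10a, 3 ranked higher in RA than in NE and 2 lower.

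The neural genes went the opposite way as a group. Of 139 tested regions near 7 of them, 27 ranked lower in RA (19.4%) and 5 higher (3.60%), with a median difference of −16.5, and 6 of the 7 genes had a lower region. Among all tested regions 6.85% ranked lower and 4.77% higher in RA, with a median difference of −2.91. DMSO gave 17 lower and 1 higher. At egr2b, a hindbrain gene, chr12:9281539-9281962 ranked 82.5, 87.4 and 79.8 in NE and 0 in all endodermal samples (−83.3 ± 12.5, SE, limma adjusted p = 7.62e-04). At sox21b, a gene of neural progenitors, chr9:55106691-55107199 ranked 92.1, 94.7 and 88.6 in NE, with DMSO replicate 3 as the only other call (65.3). gbx2, a gene of the anterior hindbrain, differed in height rather than in calls. At chr6:15957450-15957925 it had 95.9, 97.8 and 95.5 in NE, 80.8, 94.6 and 89.4 in DMSO and 77.8, 41.7 and 51.8 in RA, a difference from NE of −39.3 in RA (limma adjusted p = 0.00210) and −8.17 in DMSO (limma adjusted p = 0.614). RA lay below all other samples at gbx2, with −31.1 against DMSO (limma adjusted p = 0.0854). pax8, a gene of the ear and kidney placed in this list, instead had a region called in RA alone (60.0, 32.9 and 44.0).

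Epidermal, mesodermal and blood genes were mixed. At tfap2c and dlx3b, factors of surface ectoderm, and at pcdh8, a protocadherin gene of paraxial mesoderm, a region was called in all 3 NE samples and in none of the 9 endodermal samples, with differences of −73.7, −65.4 and −75.8. Over the tested regions of each locus, tfap2c had 2 higher and 1 lower in RA than in NE, dlx3b 1 and 2, and pcdh8 0 and 2. At tp63, the regulator of epidermal fate, chr6:28481180-28481634 was higher in RA (92.2, 82.3 and 75.8) and in DMSO (64.5, 76.0 and 78.1) than in NE (0, 43.4 and 0). At tal1, a blood and endothelial factor, chr22:16755188-16755564 ranked 63.9, 72.6 and 72.5 in RA and 0 in all other samples. gata2a, a gene of the same lineages, had 89.0, 93.7 and 88.6 in NE and 55.6, 22.6 and 0 in RA at chr11:3912584-3913079, a difference of −64.4 (limma adjusted p = 0.0288) that did not pass without any 1 of the NE samples or without RA replicate 2 or 3 (limma adjusted p = 0.0803 to 0.124).

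**Figure D4:**
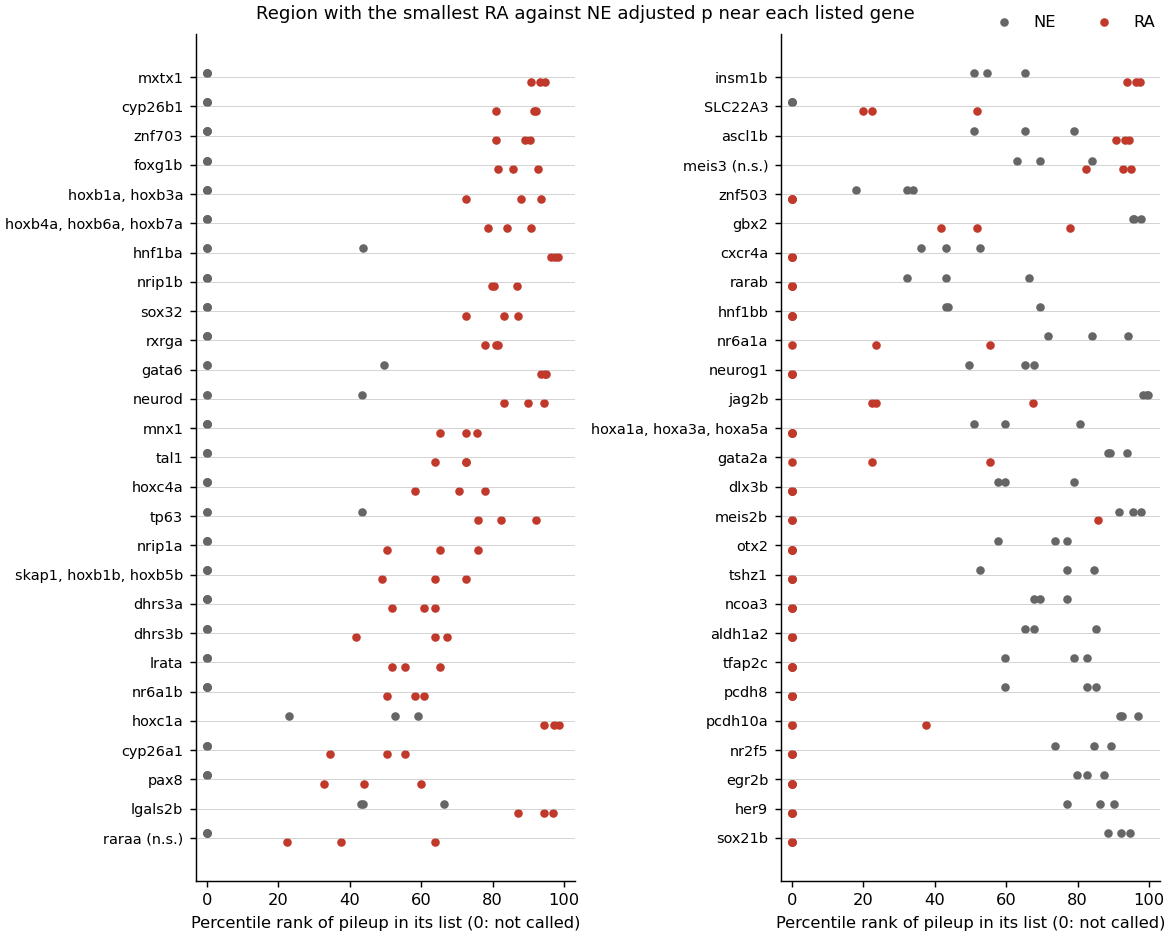
Percentile rank of pileup (x axis, 0 where no peak was called) in the 3 NE and the 3 RA samples (points) at the region of each placed gene with the smallest adjusted p of RA against NE within 50 kb of its TSS, in the order of the difference. The mark n.s. stands for a difference that does not pass the limma threshold. At cyp26b1 the RA samples lie between 81.1 and 92.2 and the NE samples at 0, and at egr2b the NE samples lie between 79.8 and 87.4 and the RA samples at 0.

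Regions that parted RA from NE lay side by side at some loci. The genes with most such regions were picked after their values were seen, and their counts are a description. At gata6, 9 of 23 tested regions ranked higher in RA than in NE, by 16.7 to 95.2, and all 9 were called in every RA list and 4 in no NE list. At lgals2b, a galectin gene, 7 of 16 ranked higher, by 41.1 to 67.9, and 6 of them were called in no NE list. At her9, a Hairy-related repressor gene of the neural plate, 9 of 29 ranked lower in RA, by 51.8 to 87.2, and 7 of these were called in no RA list. The tallest region of her9, which overlapped its TSS, had a mean rank of 98.4 in RA and 99.1 in NE and did not pass the test (limma adjusted p = 0.931). At jag2b, which encodes a Notch ligand, 8 of 21 ranked lower by 61.4 to 76.2 and 2 ranked higher, so that 1 locus held both kinds. The region of jag2b with the smallest p, chr20:21530677-21531477, ranked 99.4, 99.8 and 98.4 in NE, 80.8, 82.8 and 72.6 in DMSO and 67.4, 22.6 and 23.5 in RA.

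**Figure D5:**
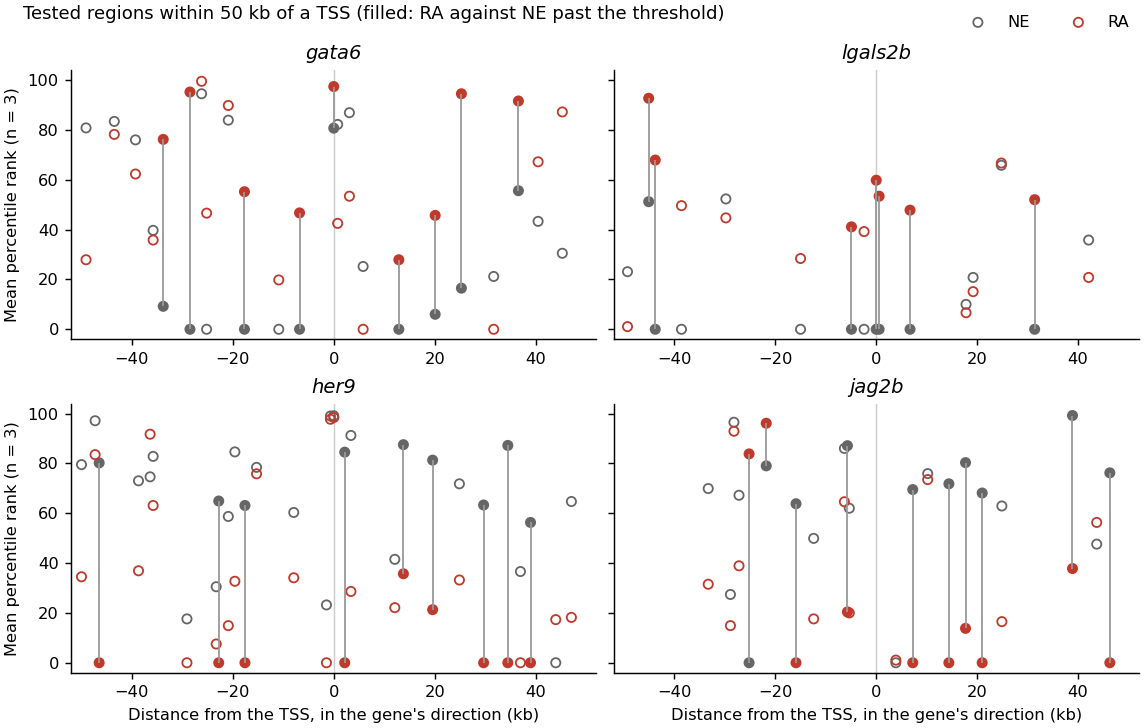
Mean percentile rank over 3 samples (y axis) of each tested region within 50 kb of the TSS of gata6, lgals2b, her9 and jag2b, by distance from the TSS in the direction of the gene (x axis, kb), in NE and RA. Filled points joined by a line passed the limma threshold for RA against NE, and open points did not. At gata6 and lgals2b RA lies above NE in all regions past the threshold, and at her9 it lies below in all 9.

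The 10 regions with the smallest adjusted p per direction did not mirror each other. All 10 that ranked higher in RA were called in every one of the 9 endodermal samples, with RA ranks from 90.8 to 99.2. The first, chr12:44163364-44163855, ranked 98.7, 97.0 and 99.1 in RA and 0 in NE (98.3 ± 7.18, SE, limma adjusted p = 3.63e-06), and 96.0 higher in DMSO than in NE. The second, chr5:36556572-36557101, 18.3 kb from si:ch211-1o14.4, had 97.9, 98.1 and 98.5 in RA. The lower regions were of different kinds. At Zv9_NA126:39305-39670, on an unplaced piece of the assembly, RA ranked 0 in all 3 samples while the other 9 samples ranked 98.8 to 99.9 (−99.7 ± 6.65 against NE, SE, limma adjusted p = 2.64e-06). The 9 peaks there were high by pileup (47.0 to 72.0) but had a deposited fold enrichment of only 1.71 to 2.18 over their surroundings. Ranked by −log10(q), the difference was −26.2 (limma adjusted p = 0.316), and with −log10(q) of at least 3 it was −66.4 (limma adjusted p = 0.107). Near ebf1a, a gene of neuronal and blood differentiation, chr14:36216521-36217365 ranked 93.7, 95.9 and 94.5 in NE, 88.8 on average in DMSO and 44.6, 32.9 and 23.5 in RA. At adamts18, a protease gene, chr7:43057189-43057937 had 97.1, 97.3 and 85.8 in NE, 73.3 on average in DMSO and 0 in RA. At zbtb16a, a zinc-finger gene, chr21:22571867-22572247 was a region of NE alone (95.4, 96.5 and 92.5). The fit took its spread from all 12 samples, so that the DMSO and BMS493 ranks also entered the choice of these regions. It also drew the spread towards a trend with mean rank over all tested regions. The SE was 7.18 at the first higher region and 13.0 at zbtb16a. Within groups the SD was at most 2.09 at both, so that these SEs came largely from the trend. Regions called in more samples have another mean rank, and so the trend also entered the choice. Some of the lower regions were called in NE, DMSO and BMS493 alike, while the higher ones were common to all endoderm. With regions chosen in this way, the contrast is a description.

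Sites bound by RAR, mapped by the study by ChIP-seq, were read last. That assay used whole embryos injected with mRNA of a Myc-tagged RARaa and given RA shortly before fixation. The sites are thus not those of sorted endoderm. Of 191 sites near genes raised by RA, the RA lists called 165, 163 and 147, the NE lists 122, 145 and 131, the DMSO lists 99, 143 and 154 and the BMS493 lists 112, 136 and 114. List length enters such counts, and the NE lists held 95779 to 143755 peaks and the RA lists 83515 to 116700. No NE share of all tested regions is set beside the calls at these or the following sites. No difference between RA and NE is therefore read from them. Over all tested regions the RA lists called 74.4%, 61.5% and 55.6% and the DMSO lists 36.4%, 72.3% and 76.5%. The BMS493 lists called 51.7%, 74.4% and 58.4%. Of the 166 tested regions at the 191 sites 37 (22.3%) ranked higher in RA and 5 (3.01%) lower, beside 10 and 5 in DMSO, against 4.77% and 6.85% of all tested regions in RA. Of 82 sites near genes lowered by RA, the RA lists called 59, 52 and 48 and the NE lists 61, 65 and 61. The DMSO lists called 33, 54 and 57 of them and the BMS493 lists 46, 52 and 47. Of 66 tested regions 3 (4.55%) ranked higher and 11 (16.7%) lower in RA than in NE, beside 0 and 8 in DMSO. At 116 sites in conserved noncoding elements the calls overlapped, with 81, 80 and 73 in RA and 71, 89 and 83 in NE. The DMSO lists called 53, 75 and 77 of these and the BMS493 lists 55, 78 and 63. Here 6 of 90 tested regions (6.67%) ranked higher and 14 (15.6%) lower in RA than in NE, beside 0 and 10 in DMSO. The first 2 groups of sites were defined by the RNA response to RA in endoderm.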

How the data were processed

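ATAC-seq was made on 12 samples in 4 groups, taken from the labels, and the study prepared its cells in triplicate. Replicates of NE were numbered by the labels, from which the list headers depart. For each sample, the authors aligned reads to Zv9 with Bowtie2 and ran MACS2 2.1.1.20160309, keeping at most 1 duplicate per position and using no control. The deposited pileup is a signal that the authors left unscaled. Fold enrichment, as deposited, is a ratio to the local background, and the deposited −log10 p-values and q-values are those of MACS2.

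Merging and counts used Python 3.11.15, numpy 2.4.6, pandas 2.3.3, scipy 1.17.1 and bedtools 2.31.1. Ranks of regions called in at least 3 samples were fitted with limma 3.58.1 in R 4.3.3 over all 12 samples (trend and robust options, Benjamini-Hochberg adjusted p under 0.05). Where lists lack a peak, 0 stands for an unknown low signal. P-values rest on the spread between these samples, which limma drew towards a trend with mean rank over all tested regions. The steps were tested on simulated data. Start sites of 1503 genes came from the study's tables, some of them shortened, and gene lists, regions and members were chosen with earlier results of these data known. Named were the 10 regions per direction with the smallest adjusted p of RA against NE, the 5 per direction with the smallest adjusted p of RA against DMSO among those that differed from NE, and for each placed gene of the lists the region with the smallest adjusted p within 50 kb; a part of these is reported. The 4 anterior endoderm genes (nkx2.1a, nkx2.3, nkx2.7 and tbx1) were not placed, and 1 further listed gene was not analysed here. No sequence of Zv9 was used.

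Alternatives were peaks with −log10(q) of at least 3, lists of equal length, merging within 100 bp, peaks that cover 50% of a region, chromosomes 1 to 25, log2 of pileup scaled to the tags of each sample, with 1 added, ranks of −log10(q), no filter, RA and NE or DMSO and NE samples alone, the replicate number as a block, and leaving out each sample.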

Additional observations from a re-analysis of the deposited data

Results flagged for a closer look

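At 20 of the named regions that differed between RA and NE, the contrast with NE was not the same in RA-treated as in DMSO-treated endoderm, by the limma test of RA against DMSO (adjusted p under 0.05). In 12 of them RA ranked higher than DMSO. The RA minus DMSO difference was 90.9 at chr9:45160490-45160878, 89.7 near si:dkey-282o23.1, 89.1 at chr3:24172145-24172629, 86.5 near si:dkey-119p2.1, 85.7 near her6, a Hairy-related repressor gene, and 80.7 near cyp26b1. It was 80.2 near rxrga, 69.7 near tal1, 69.0 near hoxc4a, 63.9 near nrip1a, 58.8 near dhrs3a and 57.6 near lrata. In the 8 others RA ranked lower, by −38.5 at chr3:10648919-10649328, −55.1 near ebf1a, −62.2 at chr8:30464166-30464858, −72.4 near flrt3, −73.3 near adamts18, −73.8 near auts2, −76.8 at chr13:29127467-29127880 and −99.6 at Zv9_NA126:39305-39670.

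At auts2 the NE and DMSO ranks were high (80.3, 93.1 and 92.5 in NE, 90.7 on average in DMSO) and only RA replicate 1 called the region (50.5). The limma adjusted p was 2.70e-06 at Zv9_NA126 and 0.0280 to 0.0402 at the other 19 regions. The latter were near the threshold. With the replicate block, without the filter or without any single NE or BMS493 sample, 1 of the 20 stayed past it, the region on Zv9_NA126. Without DMSO replicates 1, 2 and 3 it was 4, 1 and 1 of 20, without RA replicate 2 or 3 it was 2 of 10, and with ranks of −log10(q) 8 of 20. Regions called in the 3 RA samples alone were no longer tested once an RA sample was left out. With peaks that cover 50% of a region 11 of 19 stayed past the threshold, on the log2 scale of pileup 13 of 20, with lists of equal length 12 of the 13 that could be tested, with −log10(q) of at least 3, 16 of 18, and without RA replicate 1, 10 of 10. Against NE, the region on Zv9_NA126 did not pass by ranks of −log10(q) (−26.2, limma adjusted p = 0.316). All were named for these very contrasts or for their contrast with NE, and their number is a description. So is the p of those tested through RA calls alone.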

How the results depend on the processing

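The difference from NE was recomputed at 81 named regions. Settings gave a value for 58 to 81 of them, fewest with lists of equal length, and none of the values changed direction. The 2 settings that lost most were the RA and NE samples alone (9 of 81 no longer past the threshold) and peaks that cover 50% of a region (6 of 67). The calls at cyp26a1, pax8 and cxcr4a were lost with the RA and NE samples alone, those at jag2b and at the region of hoxb4a, hoxb6a and hoxb7a with 50% cover, that at ncoa3 with merging within 100 bp and those at dlx3b and nrip1a with ranks of −log10(q). The region of meis3 passed with lists of equal length and that of raraa on the log2 scale. With peaks that cover 50% of a region, 3941 regions ranked higher and 5525 lower in RA than in NE, and 1280 higher in DMSO than in NE. The 6 samples of the 2 groups alone gave 5534 lower in RA and, for DMSO against NE, 0 higher and 0 lower in limma, with 5640 and 11302 at an unadjusted p under 0.05. No filter gave 3915 lower in DMSO. Lists of equal length gave 4522 regions in NE and not in RA and 4508 higher in DMSO, and turned the RA minus BMS493 difference of non-endoderm regions to −0.313, or −1.22 without DMSO replicate 1 as well. Leaving out each sample gave 5358 to 8609 regions in RA and not in NE, 7669 to 13473 in NE and not in RA, 3495 to 7151 higher and 3301 to 9659 lower in RA than in NE, and 1448 to 5345 higher and 1935 to 5734 lower in DMSO than in NE. The differences of endoderm regions ran from −23.8 to −0.339 (RA minus DMSO) and from −13.7 to −3.25 (RA minus BMS493), and those of non-endoderm regions from −5.36 to 7.36 and from −1.51 to 4.64. The last 2 turned negative, to −5.36 without DMSO replicate 1 and −1.60 without RA replicate 1, and to −1.16 without RA replicate 1 and −1.51 without BMS493 replicate 1; the cause was not tested. Same-numbered RA and NE samples did not deviate together (r = −0.0617, −0.00729 and −0.00855). These values cannot show whether samples were prepared together, and the list headers number the NE samples otherwise than the labels. With the replicate block 5974 regions ranked higher and 8264 lower in RA than in NE, and 2618 and 5633 in DMSO than in NE. Tags and list length did not go in one order (11951035 tags after filtering and 51301 peaks in DMSO replicate 1, 11056595 and 103930 in NE replicate 3), and the part of depth in these differences was not tested.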

Other observations

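Regions past the threshold for RA against NE were also counted in windows of 100 kb, and the fullest windows were picked after their values were seen. On chromosome 18, 11 of the 24 tested regions between 44700001 and 44800000 ranked higher in RA, and on chromosome 17, 10 of 27 between 10200001 and 10300000. On chromosome 13, 8 of 23 between 13100001 and 13200000 ranked higher, where the listed gene was fgfr3, an FGF receptor gene. On chromosome 11, 14 of 23 between 43100001 and 43200000 ranked lower in RA, and on chromosome 5, 11 of 17 between 19100001 and 19200000. On chromosome 20, 10 of the 14 tested regions between 21500001 and 21600000 ranked lower, the window that holds the jag2b region with the smallest p.

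Regions called in all 3 RA and all 3 NE lists but in no DMSO or BMS493 list numbered 87, and 67 with lists of equal length. The converse, regions called in all DMSO and BMS493 lists but in no RA or NE list, numbered 85, and 193 with lists of equal length.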
